A study of Homo sapiens with 15 samples.

Results

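The genes described here are 34 chaperones, stress sensors and quality control factors of the endoplasmic reticulum (ER). They are a list of symbols grouped by function, and each symbol was matched through its Ensembl identifier to 1 gene in both deposited count tables. They are 34 of the 62700 genes in the tables, and all 34 passed the filter on low counts in both tables. By role they fall into luminal and lectin chaperones (HSPA5, HSP90B1, HYOU1, CALR, CANX), co-chaperones of BiP (DNAJB9, DNAJB11, DNAJC3, SDF2L1), oxidoreductases (PDIA3, PDIA4, PDIA6, P4HB, ERO1B) and secreted ER stress proteins (MANF, CRELD2). The others are sensors and transcription factors (ERN1, XBP1, ATF6, EIF2AK3, CREB3L1, CREB3L2), genes of ER-associated degradation (HERPUD1, SEL1L, SYVN1, EDEM1, EDEM2, EDEM3, DERL1, DERL2, DERL3), and genes of the translocon and of vesicle export (SEC61A1, SEC61B, SEC24D).

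Proteins that enter the ER are folded by chaperones, joined by disulfide bonds and checked before export. When unfolded protein accumulates, the sensors IRE1 (encoded by ERN1), ATF6 and PERK (encoded by EIF2AK3) start the unfolded protein response, in which IRE1 splices the XBP1 mRNA, ATF6 is cleaved into a transcription factor and PERK slows translation. Spliced XBP1 and cleaved ATF6 raise chaperone genes and genes of ER-associated degradation, which sends misfolded proteins to the proteasome. Splicing of XBP1, cleavage of ATF6 and phosphorylation of PERK are not visible in counts per gene, so what follows concerns mRNA levels.

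RNA was sequenced from 143B, an established human osteosarcoma cell line, in 15 libraries that form 5 groups of 3. OSC libraries (osteosarcoma stem cells, wild type) came from cells grown as floating spheres in serum-free tumorsphere medium with growth factors, and non-OSC libraries (wild type) from cells grown attached in medium with serum. The other 9 libraries came from sphere cultures infected with lentiviral short hairpin RNAs, either a control hairpin (shCtrl) or 1 of 2 hairpins against PDK1 (shPDK1_1 and shPDK1_2). PDK1 is pyruvate dehydrogenase kinase 1, and the study asked how it acts on stem-like properties of these cells. OSC here means cells enriched by the culture and not by a sort, so sphere growth, medium and stem-like state cannot be told apart. In such bulk RNA, fewer cells of a type and less RNA per cell cannot be told apart either. The labels do not say whether the libraries of a group came from separate cultures, so the p-values measure the spread between these libraries only.

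Total counts per library lay between 7992534 and 11256578. Levels are given as CPM, the count of a gene scaled to its library's total after TMM normalization, and replicates of a group differed by more than sampling noise. The targeted gene followed the labels: PDK1 had 46.6, 44.6 and 44.3 CPM with shCtrl, 28.9, 27.8 and 27.3 CPM with shPDK1_1, and 18.2, 21.5 and 19.5 CPM with shPDK1_2. Of 9 markers of osteosarcoma and mesenchymal cells, VIM and COL1A1 were high in all groups, with VIM at 3943 CPM or more on average, while the osteoblast markers IBSP and SP7 were at or under 3 counts in all 15 libraries. The summed level of these 9 markers was 4783 to 5032 CPM in non-OSC libraries and 7591 to 8090 CPM in OSC libraries. VIM, COL1A1 and SPARC made up most of that sum, while the means of RUNX2 (37.7 CPM in non-OSC, 17.3 CPM in OSC), ALPL (2.66 and 1.48 CPM) and COL1A2 (0.905 and 0.041 CPM) differed in the other direction. The lymphocyte markers CD3D and NKG7, the leukocyte marker PTPRC and the epithelial marker CDH1 were at or under 3 counts in all libraries. The summed level of 4 epithelial markers was 291.5 to 300.9 CPM in OSC and 1095 to 1224 CPM in non-OSC libraries. That of 2 osteoclast markers was 77.1 to 80.7 and 27.3 to 30.2 CPM, and that of 2 pericyte markers 20.5 to 23.6 and 4.23 to 5.24 CPM. Most of each sum came from KRT18 (means of 270 CPM in OSC and 1042 CPM in non-OSC), MMP9 (70.2 and 26.65 CPM) and ACTA2 (21.6 and 4.36 CPM). The epithelial marker EPCAM (2.82 and 3.42 CPM) and the pericyte marker RGS5 (0.44 and 0.37 CPM) differed little. Mitochondrially encoded genes took 2.94 to 3.15% of counts in OSC and 2.69 to 2.88% in non-OSC libraries, and the part of these values in the differences below was not tested.

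The ATF6 and XBP1 arms act through short promoter elements, which are shown first because several members carry them. The elements searched, on both strands, were the ER stress element ERSE (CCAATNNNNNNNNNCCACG), ERSE-II (ATTGGNCCACG), the unfolded protein response element UPRE (TGACGTGG) and the C/EBP-ATF element CARE (TTGCATCA), which is read by ATF4. In RefSeq promoters of GRCh38.p14, from 250 bases before to 50 bases after each annotated start, 30 members had at least 1 promoter, and PDIA3, DERL1, DERL3 and SEC24D had none in the table. ERSE or ERSE-II was present in 11 of these 30 members, against 44 of 27305 genes with a promoter (0.161%). The 44 genes include the 11 members. Motifs and members were both chosen for their part in the ER stress response, so these shares are not independent and were not tested. ERSE was found in HSPA5, HSP90B1, CALR, CANX, PDIA6, ERO1B, CRELD2 and XBP1, and ERSE-II in HYOU1, SDF2L1 and HERPUD1. HSP90B1 and HYOU1 held 2 elements each, the UPRE of HYOU1 overlapped its distal ERSE-II, and HERPUD1 was the only member with a CARE. Of all genes with a promoter, 0.0916% held ERSE, 0.0696% ERSE-II, 0.927% UPRE and 1.08% CARE. A match describes letters only and does not show that a factor binds.

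The 250 bases before the start are printed for the 6 members whose element count or whose change is described below, and for DNAJB9, the member that differed most between the cultures and that held none of the 4 motifs. Each runs 5′ to 3′ on the strand of its gene, and capitals mark the fixed letters of ERSE, ERSE-II, UPRE or CARE. The regions are chr9:125241344-125241593 (minus strand) for HSPA5, chr12:103930160-103930409 (plus) for HSP90B1, chr11:119057206-119057455 (minus) for HYOU1, chr22:21642052-21642301 (plus) for SDF2L1, chr22:28800570-28800819 (minus) for XBP1, chr16:56931892-56932141 (plus) for HERPUD1 and chr7:108569624-108569873 (plus) for DNAJB9.
HSPA5: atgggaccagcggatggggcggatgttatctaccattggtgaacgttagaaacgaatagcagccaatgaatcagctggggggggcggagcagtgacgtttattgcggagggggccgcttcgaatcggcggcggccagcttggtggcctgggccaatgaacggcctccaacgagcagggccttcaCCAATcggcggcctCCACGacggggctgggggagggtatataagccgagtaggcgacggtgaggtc
HSP90B1: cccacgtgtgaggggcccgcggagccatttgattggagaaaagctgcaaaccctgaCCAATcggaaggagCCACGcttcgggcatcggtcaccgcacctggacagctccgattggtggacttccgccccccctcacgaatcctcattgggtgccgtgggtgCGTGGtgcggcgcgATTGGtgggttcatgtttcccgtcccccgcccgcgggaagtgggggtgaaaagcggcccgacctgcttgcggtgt
HYOU1: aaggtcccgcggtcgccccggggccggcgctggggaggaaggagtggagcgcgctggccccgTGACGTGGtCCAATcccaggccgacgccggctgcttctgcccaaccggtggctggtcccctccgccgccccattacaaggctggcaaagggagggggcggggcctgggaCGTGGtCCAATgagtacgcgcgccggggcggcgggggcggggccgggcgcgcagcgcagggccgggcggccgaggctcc
SDF2L1: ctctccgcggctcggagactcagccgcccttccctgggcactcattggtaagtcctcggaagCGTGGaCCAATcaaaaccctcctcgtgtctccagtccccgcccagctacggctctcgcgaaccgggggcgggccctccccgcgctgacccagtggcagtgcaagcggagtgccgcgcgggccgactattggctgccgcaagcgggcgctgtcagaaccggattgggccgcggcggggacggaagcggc
XBP1: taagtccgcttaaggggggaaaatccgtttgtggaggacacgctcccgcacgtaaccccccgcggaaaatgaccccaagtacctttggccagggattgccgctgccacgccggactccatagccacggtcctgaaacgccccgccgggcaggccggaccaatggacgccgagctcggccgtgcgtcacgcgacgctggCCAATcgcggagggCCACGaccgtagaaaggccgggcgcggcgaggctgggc
HERPUD1: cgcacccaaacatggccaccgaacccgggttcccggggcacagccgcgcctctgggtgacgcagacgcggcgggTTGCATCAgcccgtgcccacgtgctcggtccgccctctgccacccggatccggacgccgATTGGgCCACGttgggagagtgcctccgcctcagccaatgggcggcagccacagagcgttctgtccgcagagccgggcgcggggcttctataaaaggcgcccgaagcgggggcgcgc
DNAJB9: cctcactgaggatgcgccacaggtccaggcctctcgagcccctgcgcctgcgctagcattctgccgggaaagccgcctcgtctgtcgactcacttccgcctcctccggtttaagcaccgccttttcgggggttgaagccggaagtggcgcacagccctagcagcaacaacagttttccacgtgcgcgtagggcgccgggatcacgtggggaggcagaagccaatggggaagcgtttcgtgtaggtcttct

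Counted from the annotated start, with bases before it negative, the ERSE of HSPA5 spanned -66 to -48 and that of XBP1 -52 to -34. The proximal ERSE of HSP90B1 spanned -89 to -71, that of PDIA6 -86 to -68 and that of CRELD2 -80 to -62, while those of CALR (-225 to -207) and ERO1B (-243 to -225) lay farther from the start. The ERSE of CANX was the same site in 3 of its 4 annotated promoters, at -189 to -171, -151 to -133 or -9 to 10 depending on the start. The sites of the 5 members whose promoters are not printed in full are as follows, with the fixed letters in capitals.
CALR: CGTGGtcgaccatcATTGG
CANX: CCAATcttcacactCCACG
PDIA6: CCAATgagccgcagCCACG
ERO1B: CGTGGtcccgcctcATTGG
CRELD2: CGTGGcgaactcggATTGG

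**Figure D1:**
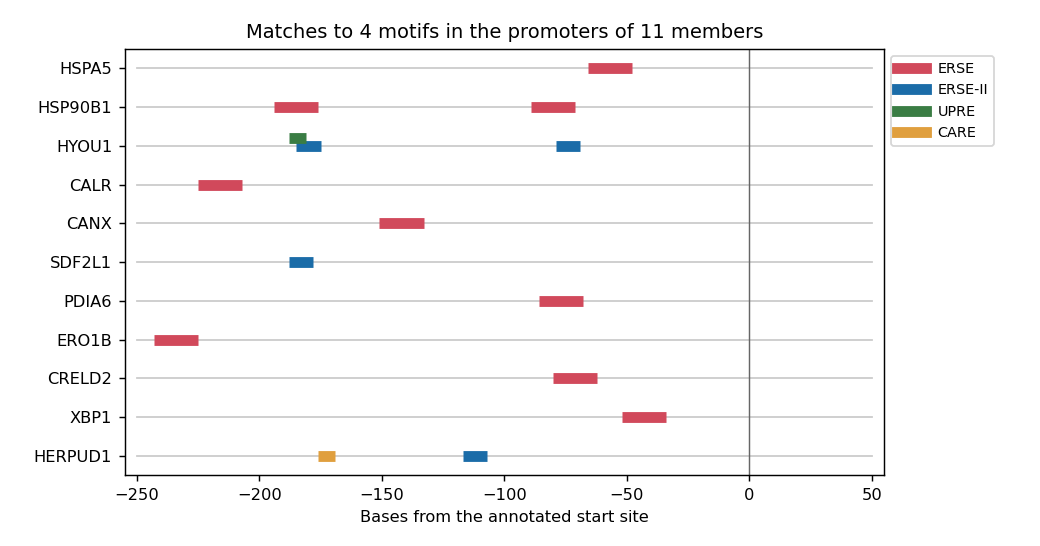
Places of ERSE, ERSE-II, UPRE and CARE matches (coloured bars) in the promoters of 11 members, with bases from the annotated start on the x axis and 1 line per gene; CANX is drawn for 1 of its promoters. HSP90B1 and HYOU1 each carry a distal and a proximal element. The CANX site is drawn at -151 to -133.

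The genes that differed most lie, in GRCh38 with GENCODE 44, on chromosome 7 from 108569867 to 108574850 (DNAJB9), chromosome 16 from 56932142 to 56944864 (HERPUD1), chromosome 2 from 88556741 to 88691518 (EIF2AK3) and chromosome 4 from 118722823 to 118838683 (SEC24D). HSPA5 lies on chromosome 9 from 125234853 to 125241382 and ERN1 on chromosome 17 from 64039080 to 64130819. In non-OSC cells the members covered a wide range of levels. Scaled to the length of the canonical transcript, the most abundant mRNA was CALR, which encodes the lectin chaperone calreticulin, at 291 ± 11.7 CPM per kb (SD, n = 3 here and below), followed by P4HB (232 ± 10.8), HSP90B1 (230.2 ± 11.6), CANX (196 ± 10.3) and HSPA5 (134 ± 1.35 CPM per kb). P4HB and HSP90B1 overlapped in that order, and the other neighbours among these 5 did not. The sensors stood near the bottom, with ATF6 at 6.16 ± 0.524 and ERN1 at 1.83 ± 0.126 CPM per kb. DERL3, a derlin, was lowest with 13 to 16 counts per library. In OSC cells the order at the top was HSP90B1 (374 ± 10.6 CPM per kb), P4HB (346 ± 9.23), CALR (336 ± 2.51), HSPA5 (284 ± 1.67) and CANX (236 ± 6.29). The libraries of P4HB and CALR overlapped in OSC cells, and the other neighbours among these 5 did not.

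ER chaperone and quality control genes were higher in OSC than in non-OSC cells across almost every role. Of the 34 members 29 were higher (85.3%) and 2 were lower (5.88%) at an adjusted p under 0.05 (edgeR's quasi-likelihood test, Benjamini-Hochberg adjustment over 14288 genes), while over all genes tested 32.4% were higher and 31.5% lower. The median log2 fold change of the members was 0.44, against -0.0054 over all genes. Because the members were chosen with earlier results of these data known, the members and all genes were not compared by a test. Summed over the members, OSC libraries held 8233 to 8313 CPM and non-OSC libraries 5651 to 5809 CPM. The members not called were ATF6, EDEM2 and DERL3. All but 3 members (PDIA4, EDEM2 and DERL3) had OSC and non-OSC libraries that did not overlap. Adjusted p-values for OSC and non-OSC below come from this fit.

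**Figure D2:**
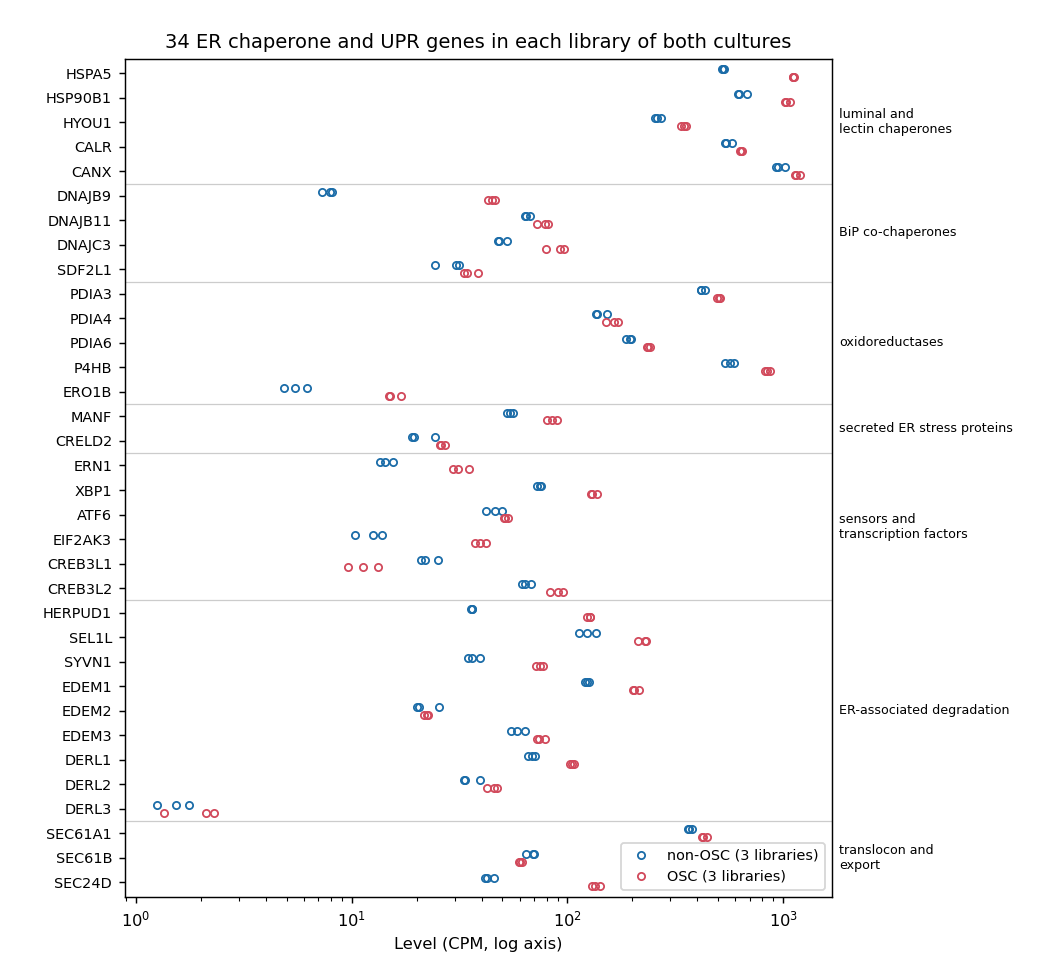
CPM (log axis) of the 34 members in each of the 3 non-OSC (blue) and 3 OSC (red) libraries, grouped by role. Red points lie to the right of blue ones for 29 members, with the reverse for CREB3L1 and SEC61B; the widest gap is that of DNAJB9.

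All 5 luminal and lectin chaperones were higher in OSC cells. HSPA5 encodes BiP, the Hsp70 chaperone of the ER lumen that also holds the sensors inactive, and its mRNA stood at 523, 533 and 526 CPM in the non-OSC libraries and at 1121, 1108 and 1116 CPM in the OSC libraries. The groups were far apart and the replicates close together, with a 2.12-fold difference (log2 1.08, standard error (SE) 0.0368, adjusted p = 2.6e-16). HSP90B1, which encodes the Hsp90 of the ER (GRP94), had 678, 619 and 625 CPM in non-OSC and 1074, 1018 and 1031 CPM in OSC libraries. It rose by 0.70 on the log2 scale (SE 0.0417, adjusted p = 3.0e-12). HYOU1, a nucleotide exchange factor of BiP, rose by 0.40, and the lectin chaperones CANX and CALR, which hold glycoproteins during folding, by 0.27 and 0.21. BiP thus had the largest estimate and the lectin pair the smallest. HSPA5 shares 2.24% of its sequence, as stretches of 75 bases, with other genes, among them its pseudogene HSPA5P1.

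The co-chaperones of BiP were all called higher as well, and DNAJB9 changed most of all members. DNAJB9 encodes ERdj4, a J-domain protein that brings BiP to IRE1. It had 8.08, 7.32 and 7.92 CPM in non-OSC libraries and 46.1, 44.7 and 42.9 CPM in OSC libraries, so the groups were far apart. The log2 fold change was 2.52 (SE 0.108, adjusted p = 1.2e-14), a ratio of 5.72. DNAJC3, another J-domain protein, rose by 0.86 (49.4 ± 2.71 to 89.6 ± 8.65 CPM) and DNAJB11 by 0.26. SDF2L1, a partner of DNAJB11, had 24.3, 31.5 and 30.4 CPM in non-OSC and 33.2, 34.2 and 38.5 CPM in OSC libraries. These ranges lie close together, and the call (log2 fold change 0.30, SE 0.104, adjusted p = 0.015) was lost without non-OSC replicate 1 (0.19, adjusted p = 0.10) and without OSC replicate 3 (0.25, adjusted p = 0.077).

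Oxidoreductases, which form and rearrange disulfide bonds, rose by amounts that differed widely. ERO1B, an oxidase that recharges the protein disulfide isomerases, had 5.48, 6.23 and 4.84 CPM in non-OSC libraries and 15.1, 14.9 and 16.9 CPM in OSC libraries. The groups did not overlap, and the difference was 2.83-fold (SE 0.158 on the log2 scale, adjusted p = 3.3e-08). P4HB, the classical disulfide isomerase PDI, rose by 0.58 (566.5 ± 26.3 to 844 ± 22.5 CPM). PDIA6, PDIA3 and PDIA4 rose by 0.30, 0.24 and 0.19, and the libraries of PDIA4 overlapped (non-OSC replicate 3 at 153 CPM, OSC replicate 1 at 151 CPM). Its call was lost without OSC replicate 2 (log2 fold change 0.15, adjusted p = 0.072). Of the exon sequence of PDIA6, 25.2% lies opposite exons on the complementary strand, and whether counting used strand is not given in the sources used here. PDIA3 shares 3.44% of its sequence, as stretches of 75 bases, with other genes, among them its pseudogene PDIA3P1.

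The 2 secreted ER stress proteins were both higher. MANF rose by 0.64, from 54.2 ± 1.62 to 84.8 ± 4.90 CPM. CRELD2 rose by 0.33, from 20.9 ± 2.98 to 26.2 ± 0.796 CPM (SE 0.110, adjusted p = 0.013). The smaller change of CRELD2 was not past the threshold without non-OSC replicate 1 (log2 fold change 0.26, adjusted p = 0.058) or without non-OSC replicate 3 (0.28, adjusted p = 0.056).

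Among the sensors and transcription factors, the mRNAs of EIF2AK3, ERN1, XBP1 and CREB3L2 rose, that of ATF6 was not called and CREB3L1 fell. EIF2AK3, the gene of PERK, had 13.9, 10.4 and 12.5 CPM in non-OSC and 39.5, 42.1 and 37.4 CPM in OSC libraries. No libraries overlapped, and the log2 fold change was 1.69 (SE 0.112, adjusted p = 1.8e-11). ERN1, the gene of IRE1, had 14.2, 13.5 and 15.5 CPM in non-OSC and 31.1, 29.6 and 34.8 CPM in OSC libraries. It rose by 1.14 (SE 0.109, adjusted p = 7.3e-09), so both sensor kinases more than doubled. XBP1, the transcription factor whose mRNA IRE1 splices, had 75.4, 74.5 and 72.5 CPM in non-OSC and 129.9, 137 and 129 CPM in OSC libraries, a rise of 0.83 (SE 0.0589, adjusted p = 5.6e-11).

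ATF6 had 49.8, 41.9 and 46.3 CPM in non-OSC and 51.6, 53.3 and 50.9 CPM in OSC libraries. These did not overlap, but the difference was small beside the spread (log2 fold change 0.17, 95% interval 0.02 to 0.33, adjusted p = 0.065). The adjusted p was 0.028 when scaled by library size alone and 0.017 without non-OSC replicate 1, and a replicate block also brought ATF6 past the threshold. CREB3L1 encodes OASIS, a membrane-bound transcription factor related to ATF6 and known from osteoblasts, where it promotes collagen synthesis. It had 20.9, 21.8 and 25.1 CPM in non-OSC libraries and 9.59, 11.3 and 13.3 CPM in OSC libraries, and thus was the member that fell most. The log2 fold change was -0.99 (SE 0.133, adjusted p = 1.3e-06). Its relative CREB3L2 went the other way, from 64.3 ± 3.15 to 89.3 ± 6.21 CPM (log2 fold change 0.47, adjusted p = 4.8e-06).

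In ER-associated degradation, 7 of 9 genes rose and none fell. HERPUD1, which organises the ubiquitin ligase complex at the ER membrane, had 36.3, 36.2 and 35.6 CPM in non-OSC and 126.9, 123 and 126.8 CPM in OSC libraries. The replicates lay close together in both groups, and the log2 fold change of 1.80 (SE 0.0652, adjusted p = 6.9e-16) was second only to that of DNAJB9 among the members. The ligase itself, SYVN1 (HRD1), rose by 1.02 and its partner SEL1L by 0.86. EDEM1, a lectin-like protein that directs misfolded glycoproteins to degradation, rose by 0.75 (123 ± 3.05 to 207 ± 6.56 CPM) and EDEM3 by 0.35, while EDEM2 stood at 22.01 ± 2.94 and 22.2 ± 0.534 CPM (log2 fold change 0.01, 95% interval -0.21 to 0.23). Of the derlins, which take part in moving proteins out of the ER, DERL1 rose by 0.62 and DERL2 by 0.35. DERL3 had 13 to 16 counts per non-OSC and 11 to 21 per OSC library (log2 fold change 0.35, 95% interval -0.38 to 1.09), and 77% of its exon sequence lies opposite exons of other genes.

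SEC24D, a cargo-binding subunit of the COPII coat that forms export vesicles, had 42.2, 45.5 and 41.6 CPM in non-OSC libraries and 133.9, 130.2 and 142 CPM in OSC libraries. It rose by 1.65 on the log2 scale (SE 0.0664, adjusted p = 4.0e-15) and was the fourth in size among the members. Of the translocon, through which proteins enter the ER, the members SEC61A1 and SEC61B had smaller estimates of opposite sign. SEC61A1, the channel subunit, rose by 0.21 (adjusted p = 1.6e-04). SEC61B, a small subunit, had 67.7 ± 3.09 CPM in non-OSC and 60.5 ± 0.928 CPM in OSC cells, and its log2 fold change of -0.16 (SE 0.0689, adjusted p = 0.044) lost its call with DESeq2, with scaling by library size alone, with no filter on low counts and with a minimum of 10 counts in every library (adjusted p 0.0502 to 0.118), and without any 1 of 5 of the 6 libraries (adjusted p 0.086 to 0.13; non-OSC replicate 1 was the exception). CREB3L1 was therefore the only member called lower under each setting tried.

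**Figure D3:**
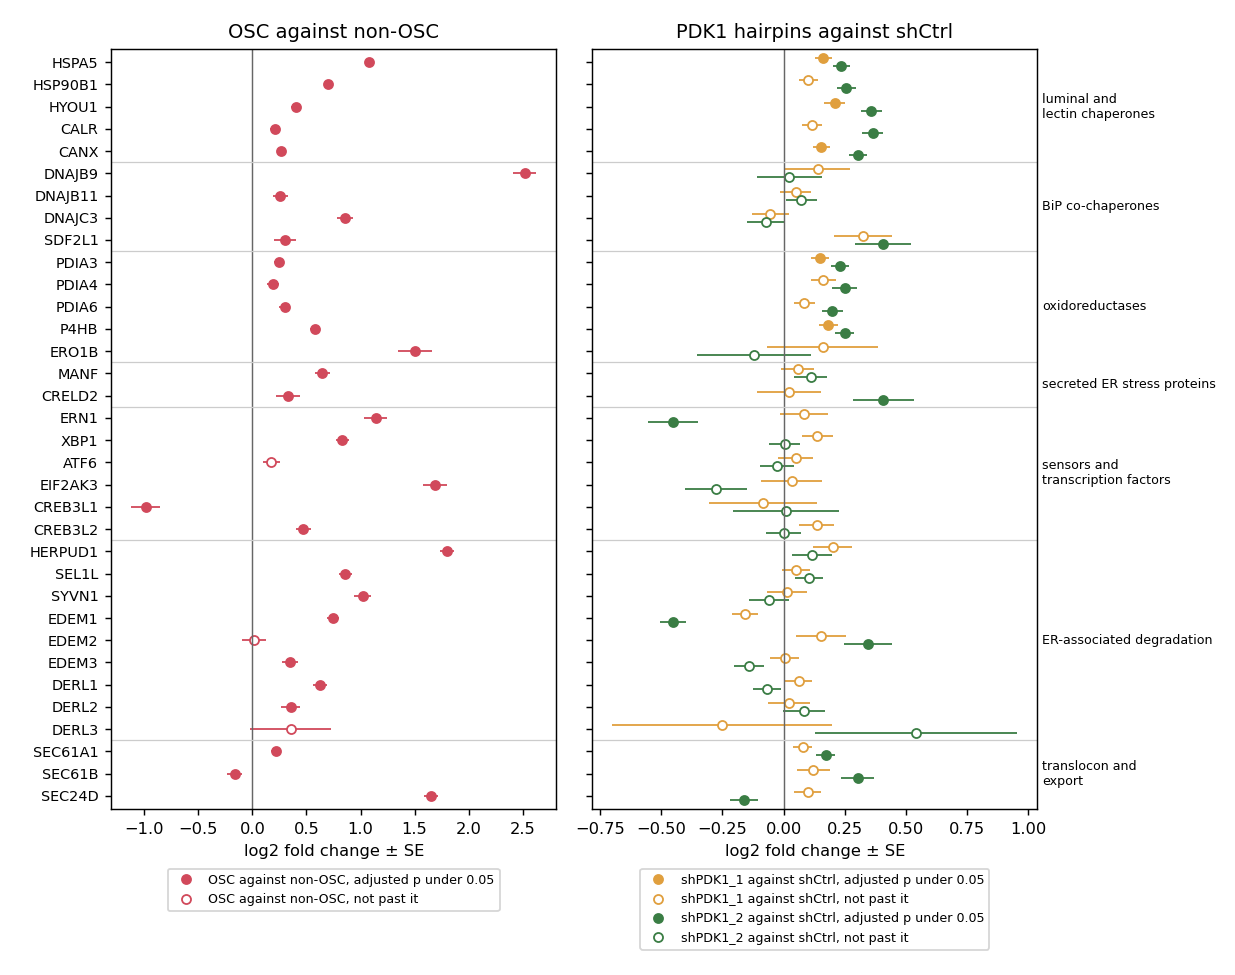
Log2 fold change with its standard error (SE) for each member in OSC against non-OSC (left) and with shPDK1_1 (orange) or shPDK1_2 (green) against shCtrl (right); filled points have an adjusted p under 0.05, and the panels have different x scales. DNAJB9, HERPUD1, EIF2AK3, SEC24D and ERO1B lead on the left, while on the right the chaperones and disulfide isomerases are right of 0 and ERN1, EDEM1 and SEC24D are left of 0 with shPDK1_2.

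Other genes of the same compartment moved up more often than down, and chaperones outside the ER did the opposite. Collagen folding genes were higher in 6 and lower in 1 of 8 tested, with the prolyl hydroxylase P4HA2 at 145 ± 3.95 CPM in OSC and 29.9 ± 3.03 CPM in non-OSC cells (log2 fold change 2.28). Other genes of ER-associated degradation were higher in 11 and lower in 4 of 19 (SELENOS highest at 1.22), COPII export genes in 8 and 1 of 12 (SEC24A 0.87), N-glycan transfer genes in 8 and 2 of 14 (MAGT1 0.84) and other oxidoreductases and isomerases in 10 and 3 of 18 (ERO1A 1.12, FKBP11 -0.88). Other translocation genes were higher in 6 and lower in 3 of 15, with SSR3 at -0.88. Of 17 regulators and output genes of the unfolded protein and integrated stress responses, 10 were higher and 4 lower. The extremes there were ATF3, a transcription factor induced by stress (2.41 ± 0.102 to 50.05 ± 0.20 CPM), and CHAC1, a target of ATF4, which fell from 14.3 ± 2.54 to 6.78 ± 1.71 CPM. Of 21 cytosolic and mitochondrial chaperones, 4 were higher and 15 lower (median log2 fold change -0.42), with the mitochondrial chaperonin HSPD1 falling from 1128 ± 54.5 to 519 ± 7.80 CPM. These counts are read against 32.4% higher and 31.5% lower over all genes. The lists were chosen with earlier results of these data known, and differences between them were not tested.

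The members with and without ERSE or ERSE-II had medians close to each other in OSC cells. The 11 members with either element were all higher, with a median log2 fold change of 0.40, and of the 19 members with a promoter and neither element 15 were higher and 2 lower, with a median of 0.47. Among 33 other genes with either element, 18 were tested, of which 7 were higher and 6 lower, with a median of 0.02. Over all genes tested, 32.4% were higher and 31.5% lower. The other genes with an element include FICD, the enzyme that adds AMP to BiP, at 2.68 ± 0.137 CPM in non-OSC and 5.53 ± 0.305 CPM in OSC cells. The differences between these lists were not tested.

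With the PDK1 hairpins the differences were small, and the members called with shPDK1_1 were all chaperones or disulfide isomerases. The members not called included SDF2L1 (log2 fold change 0.33, SE 0.118), HERPUD1 (0.20, SE 0.0806) and PDIA4 (0.16, SE 0.0519). These estimates were larger than that of PDIA3, which was called (0.15, SE 0.0358). A larger estimate thus did not always bring a call, and roles were not compared by a test. With shPDK1_1, 5 of 34 members were higher (14.7%) and 0 were lower, against 1.62% higher and 1.44% lower among 14597 genes tested (edgeR's quasi-likelihood test on all 9 hairpin libraries, Benjamini-Hochberg adjustment). Single libraries moved these counts. The 446 genes called in either direction became 270 without shCtrl replicate 1, 281 without shCtrl replicate 2 and 245 without shPDK1_1 replicate 3. Without shPDK1_1 replicate 2 they became 508. The 5 members became 3 without shCtrl replicate 2, shPDK1_1 replicate 1 or shPDK1_1 replicate 3, and 6 without shPDK1_1 replicate 2. With shPDK1_2, 14 members were higher (41.2%) and 3 lower (8.82%), against 11.9% and 14.2% of all genes. The median log2 fold change of the members was 0.09 with shPDK1_1 and 0.11 with shPDK1_2, where all genes gave 0.0025 and 0.0083. Summed over the members, the libraries held 5700.4 to 5800 CPM with shCtrl, 6220.4 to 6339 CPM with shPDK1_1 and 6677 to 6731 CPM with shPDK1_2, without overlap. Both comparisons share the shCtrl libraries, so they are given side by side and not as separate evidence. Beside these, the summed level of 4 epithelial markers was 329 to 354 CPM with shCtrl, 379 to 397 CPM with shPDK1_1 and 435.5 to 474 CPM with shPDK1_2, and that of 2 osteoclast markers 50.9 to 56.0, 34.3 to 42.6 and 22.3 to 26.4 CPM. KRT18 made up most of the epithelial sum, with means of 311, 355 and 419 CPM. MMP9 made up most of the osteoclast sum, with means of 48.3, 31.9 and 21.2 CPM. Mitochondrially encoded genes took 3.59 to 3.89% of counts with shCtrl, 3.10 to 3.63% with shPDK1_1 and 3.65 to 3.82% with shPDK1_2. The part of these sums and shares in the results was not tested. Adjusted p-values below come from this fit.

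**Figure D4:**
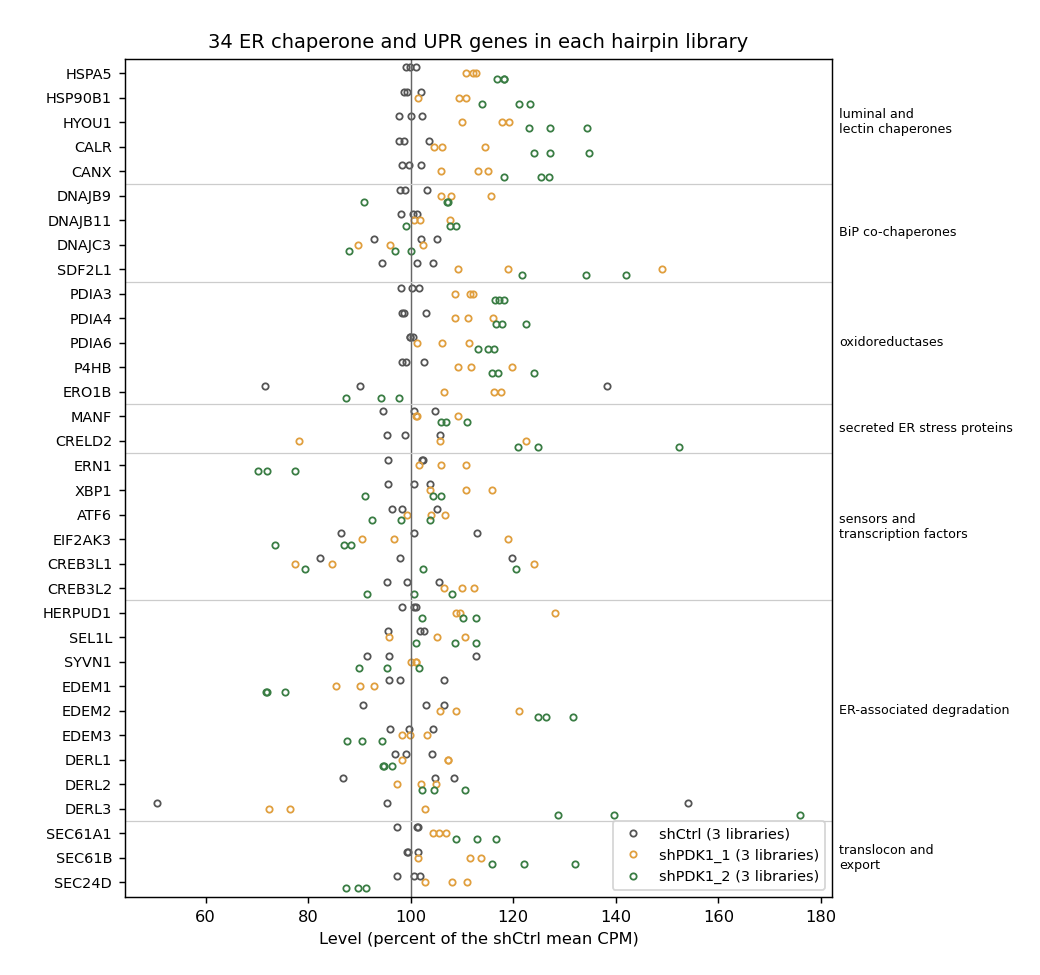
Level of each member in the 9 hairpin libraries as a percent of the mean shCtrl CPM, with shCtrl in grey, shPDK1_1 in orange and shPDK1_2 in green. For the 5 luminal and lectin chaperones every green point lies right of every grey point, and for ERN1, EDEM1 and SEC24D every green point lies left of them.

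All 5 luminal and lectin chaperones were higher with shPDK1_2, and 3 of them with shPDK1_1. HSPA5 had 466, 457 and 461 CPM with shCtrl, 511, 518 and 519.7 CPM with shPDK1_1, and 545, 539 and 545 CPM with shPDK1_2. The 3 groups did not overlap, and the log2 fold change was 0.16 with shPDK1_1 (SE 0.0345, adjusted p = 0.0065) and 0.24 with shPDK1_2 (SE 0.0344, adjusted p = 7.6e-06). HYOU1 had 283, 271 and 277 CPM with shCtrl, 326.5, 330.3 and 305 CPM with shPDK1_1, and 341, 373 and 353 CPM with shPDK1_2, and rose by 0.21 and 0.36 (adjusted p = 0.0054 and 4.3e-07). CANX had 1013, 978 and 991 CPM with shCtrl, 1143, 1053 and 1125 CPM with shPDK1_1, and 1246, 1176 and 1263 CPM with shPDK1_2. It rose by 0.16 and 0.30 (adjusted p = 0.014 and 3.5e-07), and its call with shPDK1_1 was lost in 4 fits that left out shCtrl replicate 2 or 3 or shPDK1_1 replicate 1 or 3 (log2 fold change 0.13 to 0.15, adjusted p 0.058 to 0.097).

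CALR and HSP90B1 passed the threshold with shPDK1_2 alone. CALR had 527, 496.5 and 502 CPM with shCtrl, 531, 582 and 539.8 CPM with shPDK1_1, and 631, 686 and 647 CPM with shPDK1_2. Its log2 fold change was 0.12 with shPDK1_1 (adjusted p = 0.15) and 0.36 with shPDK1_2 (SE 0.0411, adjusted p = 1.5e-07). HSP90B1 had 680.0, 677 and 699 CPM with shCtrl, 759, 695 and 750.0 CPM with shPDK1_1, and 844, 780.2 and 829.8 CPM with shPDK1_2. The shPDK1_1 libraries overlapped those of shCtrl through replicate 2, and its log2 fold change was 0.10 (adjusted p = 0.20, or 0.14 with adjusted p = 0.028 without shPDK1_1 replicate 2), against 0.26 with shPDK1_2 (adjusted p = 1.2e-05).

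The disulfide isomerases moved with the chaperones. P4HB had 573, 578 and 599 CPM with shCtrl, 652, 699 and 637 CPM with shPDK1_1, and 682, 724 and 676 CPM with shPDK1_2, and rose by 0.18 and 0.25 (adjusted p = 0.0068 and 2.1e-05). PDIA3 had 419, 410.1 and 425 CPM with shCtrl, 466.5, 454 and 469 CPM with shPDK1_1, and 490.2, 487 and 494 CPM with shPDK1_2, and rose by 0.15 and 0.23 (adjusted p = 0.017 and 1.7e-05). Leaving out shCtrl replicate 1 or 2, or shPDK1_1 replicate 1 or 3, ended the call of PDIA3 with shPDK1_1 (log2 fold change 0.13 to 0.15, adjusted p 0.063 to 0.12). PDIA4 and PDIA6 rose with shPDK1_2 (0.25 and 0.20) and had log2 fold changes of 0.16 and 0.09 with shPDK1_1 (adjusted p = 0.095 and 0.39). ERO1B had only 3.47 to 6.71 CPM with shCtrl and passed the threshold with neither hairpin.

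Of the co-chaperones only SDF2L1 was called, and only with shPDK1_2. It had 16.0, 17.6 and 17.1 CPM with shCtrl, 20.1, 25.2 and 18.5 CPM with shPDK1_1, and 22.7, 24.02 and 20.6 CPM with shPDK1_2. Every library of either PDK1 hairpin was above every shCtrl library, with a log2 fold change of 0.33 with shPDK1_1 (SE 0.118, adjusted p = 0.16) and 0.41 with shPDK1_2 (SE 0.116, adjusted p = 0.010, and 0.052 without shCtrl replicate 1). DNAJB9, which differed most between the cultures, had 10.7, 10.8 and 11.3 CPM with shCtrl, 11.8, 11.6 and 12.7 CPM with shPDK1_1, and 9.95, 11.7 and 11.8 CPM with shPDK1_2 (log2 fold changes 0.14 and 0.02, adjusted p = 0.71 and 0.92). DNAJB11 and DNAJC3 were called with neither hairpin. CRELD2, a secreted ER stress protein, had 19.0, 19.7 and 21.1 CPM with shCtrl, 21.1, 24.4 and 15.6 CPM with shPDK1_1, and 24.9, 30.4 and 24.1 CPM with shPDK1_2. Its libraries spread widely with shPDK1_1 (log2 fold change 0.02, adjusted p = 0.97), and with shPDK1_2 the log2 fold change was 0.41 (SE 0.126, adjusted p = 0.017). The adjusted p for CRELD2 rose to 0.072 without shCtrl replicate 1, 0.057 without shCtrl replicate 2 and 0.12 without shPDK1_2 replicate 2. MANF, the other secreted protein, had log2 fold changes of 0.06 and 0.11 and was not called.

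No sensor or transcription factor was called higher with either hairpin, and ERN1 fell with shPDK1_2. ERN1 had 20.2, 21.6 and 21.7 CPM with shCtrl, 23.5, 21.5 and 22.5 CPM with shPDK1_1, and 14.9, 15.2 and 16.4 CPM with shPDK1_2. The shPDK1_2 libraries lay below all others, with a log2 fold change of -0.45 (SE 0.102, adjusted p = 0.0015), while with shPDK1_1 it was 0.08 (adjusted p = 0.77). EIF2AK3 had 18.5, 20.7 and 15.9 CPM with shCtrl, 16.6, 17.8 and 21.8 CPM with shPDK1_1, and 16.0, 13.5 and 16.2 CPM with shPDK1_2 (log2 fold changes 0.03 and -0.28, adjusted p = 0.95 and 0.12). XBP1 had 85.9, 88.6 and 81.6 CPM with shCtrl, 94.6, 88.6 and 98.9 CPM with shPDK1_1, and 90.3, 77.7 and 89.0 CPM with shPDK1_2 (0.14 and 0.0042, adjusted p = 0.31 and 0.97).

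ATF6 had 50.6, 51.6 and 55.2 CPM with shCtrl, 54.5, 52.04 and 56.0 CPM with shPDK1_1, and 48.5, 54.4 and 51.5 CPM with shPDK1_2, overlapping throughout (log2 fold changes 0.05 and -0.03). CREB3L1 was low in all hairpin libraries, with 7.44, 5.11 and 6.08 CPM with shCtrl, 7.70, 4.81 and 5.26 CPM with shPDK1_1, and 4.93, 6.36 and 7.49 CPM with shPDK1_2 (log2 fold changes -0.08 and 0.01, with 95% intervals of -0.51 to 0.35 and -0.42 to 0.43). A change of CREB3L1 within those intervals is thus not excluded, and the intervals are not limits of detection. CREB3L2 was not called (0.14 and 0.0010).

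Of the 9 genes of ER-associated degradation, 1 was higher and 1 lower with shPDK1_2, and none was called with shPDK1_1. EDEM1 had 149.6, 134 and 137 CPM with shCtrl, 120.1, 127 and 130.3 CPM with shPDK1_1, and 106, 101 and 101 CPM with shPDK1_2. The 3 groups did not overlap, with a log2 fold change of -0.16 with shPDK1_1 (adjusted p = 0.12) and -0.45 with shPDK1_2 (SE 0.0538, adjusted p = 3.5e-07). With that of ERN1 this was the largest fall among the members called. EDEM2 went the other way with shPDK1_2, from 19.6 ± 1.63 to 25.0 ± 0.705 CPM (log2 fold change 0.35, adjusted p = 0.010, and 0.064 without shCtrl replicate 3). HERPUD1 had 38.9, 38.7 and 37.8 CPM with shCtrl, 49.3, 42.1 and 41.8 CPM with shPDK1_1, and 43.3, 42.4 and 39.3 CPM with shPDK1_2. All PDK1 hairpin libraries were above the shCtrl libraries, but the differences missed the threshold (log2 fold changes 0.20 and 0.12, adjusted p = 0.22 and 0.32). SEL1L, SYVN1, EDEM3 and the 3 derlins were called with neither hairpin.

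Translocon and export genes moved apart with shPDK1_2. SEC61A1 rose by 0.17 and SEC61B by 0.30 (adjusted p = 0.0013 and 0.0011), with log2 fold changes of 0.08 and 0.12 with shPDK1_1 (adjusted p = 0.36 and 0.44). SEC24D had 90.9, 89.9 and 86.9 CPM with shCtrl, 96.5, 99.06 and 91.7 CPM with shPDK1_1, and 78.0, 80.1 and 81.5 CPM with shPDK1_2. The shPDK1_1 libraries were above the shCtrl libraries and the shPDK1_2 libraries below them. The log2 fold change was 0.10 with shPDK1_1 (adjusted p = 0.44) and -0.16 with shPDK1_2 (SE 0.0560, adjusted p = 0.034). The latter call was lost with DESeq2 (adjusted p = 0.062), with no filter on low counts (0.072) and when shCtrl replicate 1 or 2 or any of the shPDK1_2 replicates was left out (adjusted p 0.054 to 0.12).

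The hairpins left different amounts of PDK1 and were also compared with each other. In this comparison the amount of PDK1 and the sequence of the hairpin cannot be told apart. Between shPDK1_2 and shPDK1_1, 5 of 34 members were higher with shPDK1_2 (14.7%) and 3 lower (8.82%), against 6.47% and 9.78% of all genes tested. The 5 became 3 without shPDK1_1 replicate 3 or shPDK1_2 replicate 2. The higher ones were CRELD2 (log2 fold change 0.39), CALR (0.25), HSP90B1 (0.16), CANX (0.15) and HYOU1 (0.15), that is 4 of the 5 luminal and lectin chaperones. The lower ones were ERN1 (-0.53, SE 0.101, adjusted p = 3.9e-04), EDEM1 (-0.29, SE 0.0540, adjusted p = 2.9e-04) and SEC24D (-0.26, SE 0.0553, adjusted p = 0.0014). The library values of ERN1, EDEM1, SEC24D and CALR are given above and did not overlap between the hairpins, while those of CRELD2 overlapped because shPDK1_1 spanned 15.6 to 24.4 CPM. CRELD2 lost its call with DESeq2 (adjusted p = 0.067) and without shPDK1_1 replicate 1 (0.052), shPDK1_1 replicate 3 (0.28) or shPDK1_2 replicate 2 (0.19), and HYOU1 lost its call without shPDK1_1 replicate 3 (0.12) or shPDK1_2 replicate 2 (0.089).

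The other lists differed in direction with shPDK1_2, where 11.9% of all genes were higher and 14.2% lower. N-glycan transfer genes were higher in 8 of 14 and lower in 0, led by MAGT1 (0.46), and cytosolic and mitochondrial chaperones were higher in 9 and lower in 1 of 21, led by HSP90AB1 (2074 ± 41.6 to 2588 ± 34.1 CPM). Other translocation genes were higher in 6 and lower in 2 of 15 (SRPRA 0.31, SEC11C -0.90), other oxidoreductases and isomerases in 5 and 2 of 18 (FKBP11 0.48, TXNDC5 -0.22), and collagen folding genes in 3 and 0 of 8 (SERPINH1 0.41). Other genes of ER-associated degradation were higher in 2 and lower in 2 of 19, and COPII export genes in 1 and 1 of 12. Regulators and output genes of the unfolded protein and integrated stress responses were higher in 0 and lower in 6 of 16 tested, with ATF3 at 31.7 ± 0.205 CPM with shCtrl and 8.63 ± 0.877 CPM with shPDK1_2. With shPDK1_1 these lists held at most 2 calls in either direction each, among them ATF3 (log2 fold change -0.49) and MAGT1 (0.24).

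Members with ERSE or ERSE-II made up 8 of the 14 called higher with shPDK1_2, and PDIA3, also among the 14, had no promoter to search. Of all genes tested, 11.9% were higher and 14.2% lower with shPDK1_2, and 1.62% and 1.44% with shPDK1_1. Of the 11 with either element 8 were higher and 0 lower (median log2 fold change 0.26), and of the 19 with a promoter and neither element 5 were higher and 2 lower (median 0.02). With shPDK1_1 the counts were 3 of 11 (median 0.16) and 1 of 19 (median 0.05). ERO1B, XBP1 and HERPUD1 were the members with an element that were not called with shPDK1_2. Of the 18 other genes with either element, 2 were higher with shPDK1_2, led by GYS1 (0.32), and 3 were lower, with a median of 0.04. The difference between members with and without an element was not tested. All 5 luminal and lectin chaperones held an element, so for them element and role cannot be told apart.

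**Figure D5:**
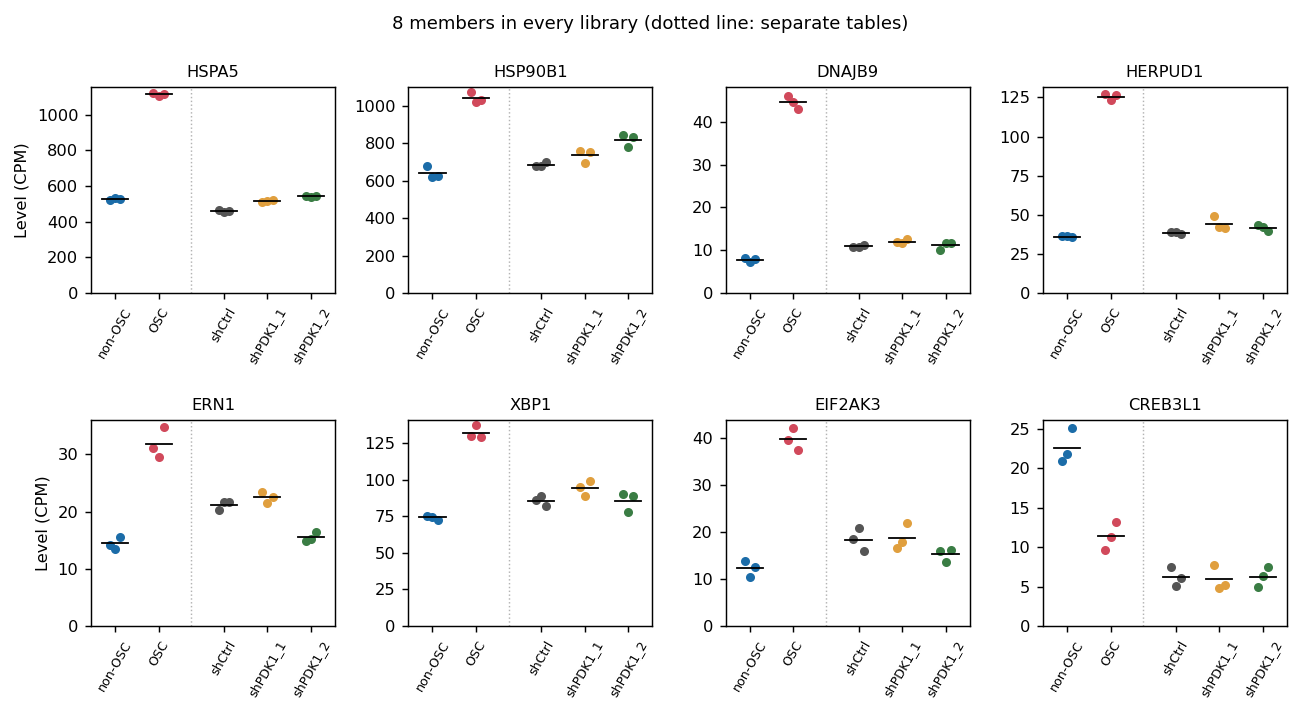
CPM (linear axis from 0) of 8 members in every library, with the mean of each group as a black line; the dotted line separates the OSC table from the hairpin table, which were scaled separately. HSPA5, HSP90B1, DNAJB9, HERPUD1, ERN1, XBP1 and EIF2AK3 are highest in OSC libraries, CREB3L1 is highest in non-OSC libraries, and ERN1 is lowest within the hairpin table with shPDK1_2.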

How the data were processed

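Per the submitters' processing notes, the authors trimmed paired reads (Trimmomatic 0.39, FastQC 0.12.1), aligned them to GRCh38.p14 (STAR 2.7.11a) and estimated counts per gene (RSEM 1.3.3). The authors deposited 2 tables of expected counts, not normalized, with 6.44 to 7.19% of values not whole. Annotation and strandedness are not given in the sources used here.

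Counts were rounded to whole numbers, and all 62700 Ensembl identifiers matched GENCODE 44. Column names are abbreviations: those for 2D culture, 3D culture and control were read as non-OSC, OSC and shCtrl from the described cultures, with the replicate number kept, and 0 columns were left unmapped. Each table was fitted on its own (6 and 9 libraries) with edgeR 4.0.16 in R 4.3.3: filterByExpr, TMM, the quasi-likelihood test without a replicate block, and Benjamini-Hochberg adjustment over all genes kept, called at 0.05. The SE was derived from the same test, as the absolute log2 fold change divided by the square root of its F statistic. Intervals are 1.96 SE. The common biological coefficient of variation was 0.0548 in the OSC table and 0.0482 in the hairpin table. Replicate libraries differed by chi-square values of 1.96 to 3.56 per degree of freedom, so none was counted as a repeat. Alternatives were DESeq2 1.42.0, library size alone, other low-count filters, a replicate block, hairpin fits restricted to the groups compared, and each library left out. Promoters came from RefSeq tables of GRCh38.p14, and lengths from the canonical transcripts. Tables and plots used Python 3.11.15, pandas 2.3.3 and matplotlib 3.10.9.

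The members, their roles and the other gene lists were chosen with earlier results of these data known. All 34 members are accounted for. Values in every library are given for 10 members fixed by name and, per comparison, for the 5 called members with the largest absolute log2 fold change. Of each other list, at most the largest rise and the largest fall are named.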

Additional observations from a re-analysis of the deposited data

Results flagged for a closer look

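For 8 members the effects of the hairpins differed by a direct test of shPDK1_2 against shPDK1_1 in the same fit (edgeR's quasi-likelihood test, Benjamini-Hochberg adjustment over 14597 genes). Of the 34 members 14.7% were higher with shPDK1_2 and 8.82% lower, against 6.47% and 9.78% of all genes tested, so falls were no more frequent than over all genes. The calls of HYOU1 and CRELD2 were lost in some alternative fits, as given above. Higher with shPDK1_2 were HSP90B1 (log2 fold change 0.16, adjusted p = 0.0055), HYOU1 (0.15, adjusted p = 0.016), CALR (0.25, adjusted p = 7.8e-05), CANX (0.15, adjusted p = 0.0044) and CRELD2 (0.39, adjusted p = 0.034). Lower with shPDK1_2 were ERN1 (-0.53, adjusted p = 3.9e-04), EDEM1 (-0.29, adjusted p = 2.9e-04) and SEC24D (-0.26, adjusted p = 0.0014). All 3 shPDK1_2 libraries lay on 1 side of all 3 shPDK1_1 libraries for these members except CRELD2. PDK1 itself was lower with shPDK1_2 than with shPDK1_1 (-0.50, adjusted p = 2.4e-04), and its amount cannot be told apart from the sequence of the hairpin.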

How the results depend on the processing

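No value of a member reversed its direction past the threshold under any alternative tried. Of the single-member values under the alternatives, 1546 kept their side of the threshold, 40 lost a call and 9 gained one. Members called lower in OSC cells numbered 2, and 1 with DESeq2, with scaling by library size only, without the low-count filter or with at least 10 counts in every library, since SEC61B lost its call. With a library left out that count was 1 to 2. Members called higher with shPDK1_1 numbered 5, and 3 to 6 with a library left out, with 3 without shCtrl replicate 2, shPDK1_1 replicate 1 or shPDK1_1 replicate 3. Members called higher with shPDK1_2 than with shPDK1_1 numbered 5, and 3 to 6 with a library left out, with 3 without shPDK1_1 replicate 3 or shPDK1_2 replicate 2. The other counts stayed within 1.5 times, with 28 to 29 higher in OSC cells and 12 to 14 higher and 2 to 3 lower with shPDK1_2 with a library left out. For libraries with the same replicate number, the correlation of their deviations lay between -0.0522 and 0.0949 over 12 pairs, under the 0.1 set for pairing. This cannot show that they shared no batch. A replicate block raised the genes called from 9126 to 9423 in OSC against non-OSC and from 446 to 507 with shPDK1_1. The rise was from 3810 to 3944 with shPDK1_2 and from 2373 to 2512 between the hairpins. With the replicate block, 30 members were higher and 2 lower in OSC cells, 5 and 0 with shPDK1_1, 14 and 3 with shPDK1_2, and 5 and 3 between the hairpins. The block added ATF6 in OSC cells (log2 fold change 0.18, adjusted p = 0.044) and changed no other call. Depth limits DERL3 most, with 6 to 22 counts per library, and then ERO1B and CREB3L1 in the hairpin libraries.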

Other observations

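The control hairpin libraries came from sphere cultures, but most members stood nearer to the non-OSC than to the OSC level in them. This held for 26 of the 29 members higher in OSC cells (89.7%), against 1393 of 4628 genes higher in OSC cells (30.1%). The exceptions among the members were EDEM3, DERL1 and SEC24D. HSPA5 averaged 527 CPM in non-OSC, 1115 CPM in OSC and 461 CPM in shCtrl cells, and DNAJB9 7.77, 44.6 and 10.9 CPM. HERPUD1 averaged 36.0, 126 and 38.5 CPM. SDF2L1 and PDIA4, like HSPA5, had lower means with shCtrl (16.9 and 102 CPM) than in either group of the other table. Among the members higher in OSC cells, so did CALR, DNAJB11, PDIA3, ERO1B, CRELD2, CREB3L2 and SEC61A1. CREB3L1, which was lower in OSC cells, was also below both groups with shCtrl and stood nearer to OSC. It averaged 22.6 CPM in non-OSC, 11.4 CPM in OSC and 6.21 CPM in shCtrl cells. The tables were scaled separately and hold no library in common, so these levels are set side by side without a test, and table, infection and culture cannot be told apart.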
